A study of Mus musculus with 18 samples.

Results

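The comparison described here sets mouse embryonic fibroblasts given 30 µM uracil against the same kind of cells given 10 µM uracil, within each of 5 replicate numbers. Mouse embryonic fibroblasts (MEFs) are cultured from the connective tissue of embryos, and the study asked whether uracil in their medium alters the matrix they lay down. The series holds 18 libraries of total RNA, 6 each from cells kept for 24 hours in full growth medium with no added uracil, 10 µM uracil or 30 µM uracil. The 10 libraries used here are those of numbers 1 to 5 at the last 2 doses, chosen by the dose and number in their labels. The pair of number 6 was left out because both of its libraries had more than 5% of read pairs unaligned, and its values are given separately. No library carries a genetic change that the labels name, and strain, sex and embryonic age are not given in the labels. The study's methods call the samples biological replicates, but the labels do not say whether the numbers are separate cultures or embryos. A p-value here therefore measures the spread between these samples, which may be partly technical. Because RNA of whole cultures was sequenced, fewer cells of a type and less RNA per cell cannot be told apart.

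Uracil is a nucleobase of RNA that cells obtain by splitting uridine with uridine phosphorylase, encoded by Upp1, and that the liver breaks down through dihydropyrimidine dehydrogenase. Pyrimidine nucleotides are otherwise built from glutamine and aspartate or salvaged by uridine-cytidine kinases. Fibroblasts secrete fibronectin and collagens, and they assemble fibronectin into fibrils by pulling on it through α5β1 integrin, which endosomes return to the cell surface.

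Counts assigned to genes ranged from 13257477 to 19667523 per library, with means of 15747178 ± 2461259 at 10 µM and 14827844 ± 1653200 at 30 µM (SD, n = 5). Unaligned pairs made up 1.72% to 3.59% of these libraries. Pairs under the alignment quality limit made up 4.79% to 13.1% and were a larger share at 30 µM in 4 of 5 numbers (exact sign-flip permutation p = 0.125, two-sided, adjusted p = 0.833 over 10 library measures). With 5 pairs that test cannot go below 0.0625. Levels are given in CPM, counts scaled to a common library total with edgeR's trimmed-mean factors. As a check of the label, 11 of 11 fibroblast markers were measured, with summed levels of 26515 to 29012 CPM at 10 µM and 27304 to 30528 CPM at 30 µM. Endothelial, immune, muscle, adipocyte and neural markers were each measured for 2 genes. The immune marker Lyz2 was too low to test, with 2 to 43 counts. Over the 10 libraries the immune pair summed to 1.39 to 2.99 CPM, the endothelial pair to 7.84 to 11.7 CPM, the muscle pair to 18.7 to 31.2 CPM, the adipocyte pair to 20.1 to 42.5 CPM and the neural pair, Tubb3 and Map2, to 236.4 to 301.2 CPM, while Sox10 and Elavl3 had at most 1 count and Adipoq and Myod1 had 0 in every library.

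Of the 10 libraries, 3 carried counts of genes that fibroblasts are not known for. Genes of the exocrine pancreas that were too low overall for testing, 27 in number, summed to 4991 counts in the 10 µM library of number 2 and to 2315 in the 30 µM library of number 4. The other 8 libraries held between 7 and 44 such counts. Liver genes, also 27 outside the tests, summed to 706 counts in the 10 µM library of number 2 and 255 in that of number 1, against 7 to 26 elsewhere. Neutrophil and macrophage genes, 10 outside the tests, summed to 84 and 85 counts in the 10 µM libraries of numbers 1 and 2. They summed to 38 in the 30 µM library of number 4, against 2 to 12 in the rest of the 10. Pancreatic counts also reached 3612 in the control library of number 3, so they were not particular to uracil. Liver counts reached at most 24 in any control library. Neutrophil and macrophage counts reached 96 and 82 in the controls of numbers 2 and 3. The origin of all these counts was not tested.

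**Figure D1:**
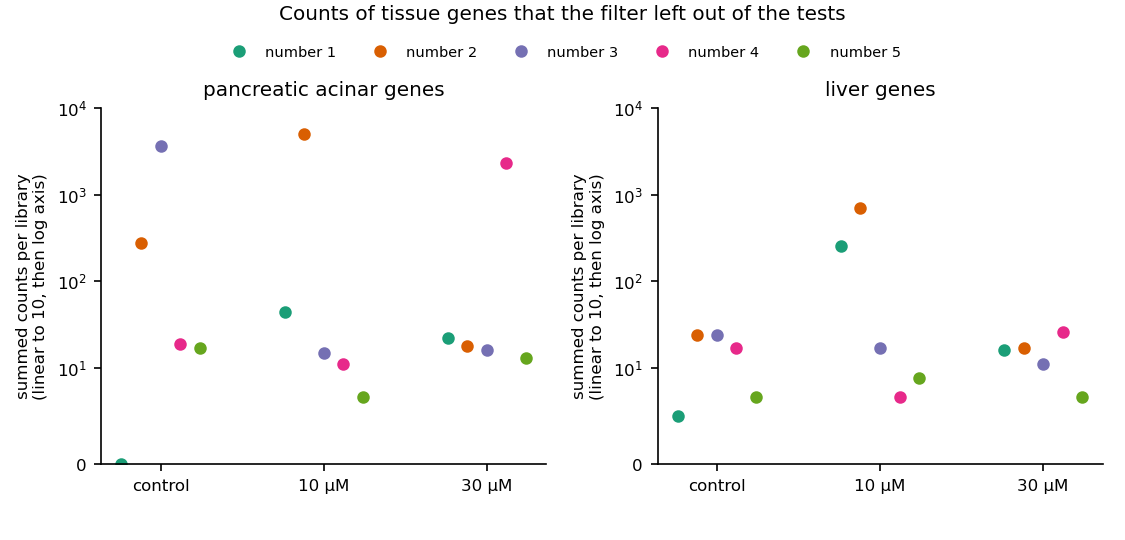
Summed counts per library (vertical axis, linear to 10 and logarithmic above) of pancreatic acinar genes (left) and liver genes (right) that were outside the tests, for the libraries of numbers 1 to 5 at each dose, 1 point per library coloured by number. The 10 µM library of number 2 stands highest in both panels, at 4991 and 706 counts.

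No gene passed the test of 30 µM against 10 µM. Of 13707 genes tested with edgeR's quasi-likelihood test and the replicate number as a block, 0 had an adjusted p under 0.05 (0% called), and the smallest adjusted p was 0.934. Unadjusted, 512 genes had p under 0.05 (3.74% of those tested), of which 244 were higher at 30 µM (1.78%) and 268 were lower (1.96%), and DESeq2 with the same block gave 109. A total of 7103 genes had a higher fitted level at 30 µM and 6604 a lower one, with a median log2 difference of 0.0035. Of the alternative settings tried, 2 ended the count of 0. Without the filter on low counts 9 genes were called, and with numbers 1, 2 and 4 left out, which drops the 3 libraries with pancreatic or liver counts and leaves 2 pairs, 8 genes were called. No gene named below had an adjusted p under 0.934 over all 13707 genes, so differences of single genes are given as values with their errors.

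The pairs left limited room for large differences in well-measured genes. The 95% interval of the log2 difference lay within a 1.5-fold change in either direction for 12295 genes (89.7%). Among the 9373 genes with a mean of 10 CPM or more it did so for 9338 (99.6%). Over the 13006 genes with at least 1 CPM the median half-width of the interval was 0.140 and the median absolute log2 difference was 0.0512, and 95% of the differences were below 0.213. A fitted change over 1.5-fold was seen in 18 of these genes, and the 13 of them with an unadjusted p under 0.05 had means of 1.02 to 2.73 CPM.

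**Figure D2:**
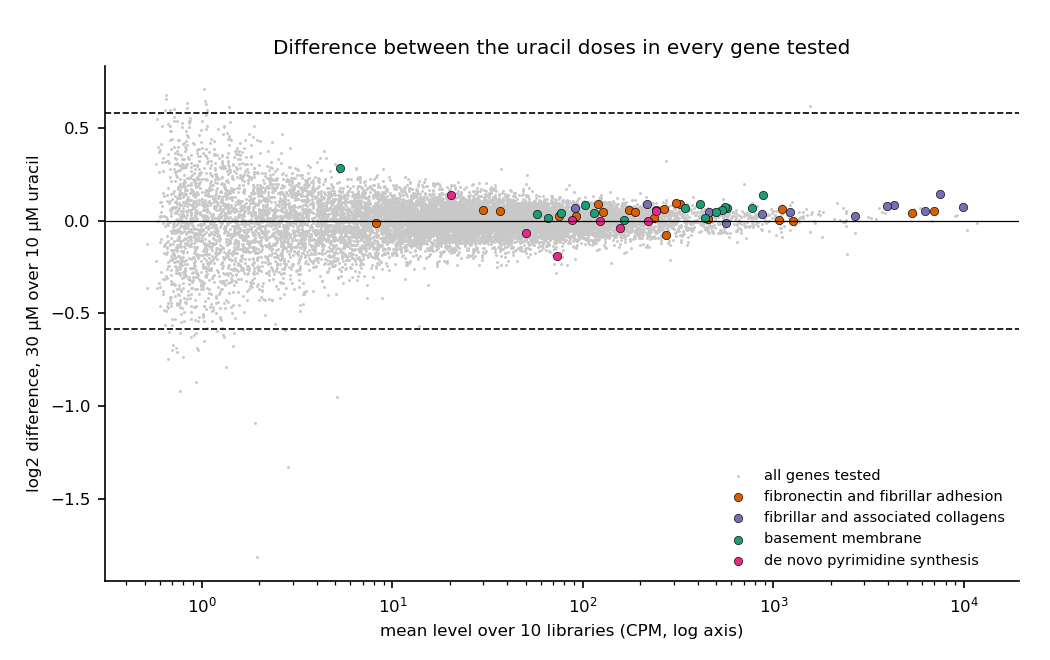
Log2 difference of 30 µM over 10 µM (vertical axis) against the mean level in CPM over the 10 libraries (horizontal log axis), 1 point per gene tested, with 4 gene lists in colour and dashed lines at a 1.5-fold change. The points narrow towards 0 as the level rises, and the coloured genes lie between the dashed lines.

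Few genes separated the doses in every pair. Groups did not overlap for 46 genes (0.336% of those tested). Genes were higher at 30 µM in 5 of 5 numbers in 423 cases (3.09%) and lower in 5 of 5 in 344 (2.51%). Of the 32 sign patterns that 5 pairs can take, 1 is higher throughout and 1 is lower throughout, so nothing is read from these shares. Across the 13707 genes the within-number differences of any pair of numbers correlated with r between -0.166 (numbers 4 and 5) and 0.141 (numbers 2 and 5), a description over genes that share their libraries. Among the 9373 genes with 10 CPM or more, the SD of the within-number log2 difference was 0.116 in number 3, 0.119 in number 2, 0.139 in number 4, 0.150 in number 1 and 0.219 in number 5.

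Fibronectin and its receptor differed little between the doses. Fn1 (ENSMUSG00000026193, chromosome 1, 71624673 to 71692419, minus strand, GRCm39), which encodes fibronectin, stood at 6158, 7255, 7313, 6712 and 6791 CPM at 10 µM in numbers 1 to 5. At 30 µM it stood at 7087, 7301, 7398, 7286 and 6422 CPM. The 30 µM library was higher in 4 of 5 numbers, number 5 went the other way, and the groups overlapped (6846 ± 469 against 7099 ± 395 CPM, SD, n = 5). The fitted log2 difference was 0.05 ± 0.040 (SE, 95% interval -0.03 to 0.14, edgeR adjusted p = 0.934). Scaled together with all 18 libraries, those of numbers 2 to 5 without added uracil gave 7613 ± 1286 CPM (SD, n = 4). On that scale the means were 6742 CPM at 10 µM and 7001 CPM at 30 µM. The control of number 1, with 54.2% unaligned pairs, and that of number 6, with 2.49%, are not in this control mean.

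Itga5 (ENSMUSG00000000555, chromosome 15, 103252713 to 103275270, minus strand), the integrin α5 chain, had 170, 201, 189, 158 and 139 CPM at 10 µM. The values at 30 µM were 182, 203, 203, 162 and 142 CPM. Every number was higher at 30 µM, yet the numbers differed from each other far more than the doses did and the groups overlapped. The log2 difference was 0.06 ± 0.038 (95% interval -0.02 to 0.14, edgeR adjusted p = 0.934), and the exact sign-flip test over the 5 pairs gave its smallest possible p, 0.0625. On the scale of all 18 libraries, the mean of the controls of numbers 2 to 5 was 183 ± 44.2 CPM (SD, n = 4). The means on that scale were 169 CPM at 10 µM and 176 CPM at 30 µM.

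Itgb1 (ENSMUSG00000025809, chromosome 8, 129411876 to 129460618, plus strand), the β1 chain shared by α5β1 and many other integrins, measured 1298, 1376, 1346, 1194 and 1140 CPM at 10 µM. It measured 1343, 1383, 1319, 1224 and 1097 CPM at 30 µM. The groups overlapped almost fully, and the log2 difference was 0.0014 ± 0.034 (95% interval -0.07 to 0.07, edgeR adjusted p = 1). Its sign turned under 7 of 20 alternatives, so no direction is given. The transferrin receptor gene Tfrc (ENSMUSG00000022797, chromosome 16, 32427556 to 32451612, plus strand), whose protein is the classical cargo of the recycling endosome, had 124, 121, 125, 109 and 119 CPM at 10 µM. At 30 µM it had 116, 116, 124, 125 and 106 CPM. The groups overlapped, with a log2 difference of -0.03 ± 0.049 (95% interval -0.13 to 0.08, edgeR adjusted p = 0.958), and the sign turned in the fit without number 5 (0.0040) and with GC content removed (0.016).

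**Figure D3:**
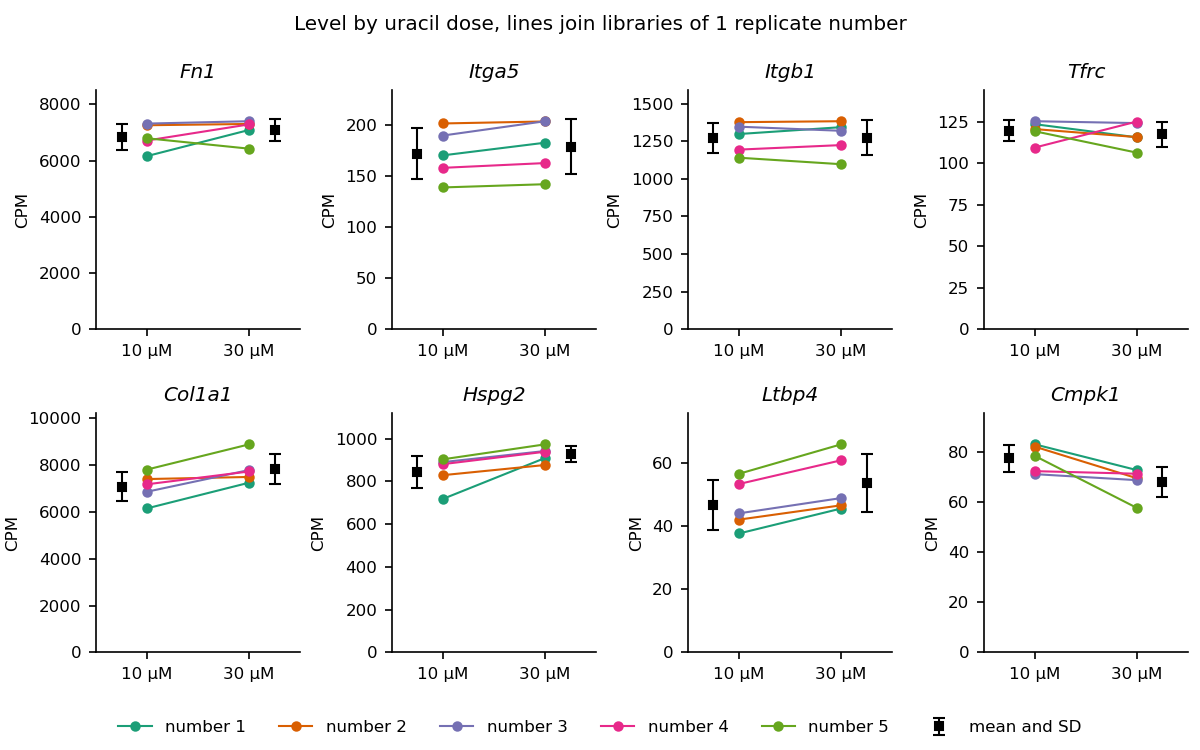
Level in CPM (vertical axis, from 0) at 10 µM and 30 µM uracil of 8 genes, with lines joining the 2 libraries of a replicate number and black squares giving the mean and SD of the 5 libraries. Lines of Itga5, Col1a1, Hspg2 and Ltbp4 run up in all 5 numbers, some of them by little. Those of Cmpk1 run down in all 5, and those of Fn1, Itgb1 and Tfrc run both ways.

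The fibronectin and fibrillar adhesion list held 20 genes, all tested. None was called and none had an unadjusted p under 0.05. At 30 µM 18 of them were higher, against 7103 of all 13707 genes tested. The median log2 difference of the list was 0.046 against 0.0035 over all genes. The intervals of all 20 lay within 1.5-fold. The member with the smallest p was Zyx, zyxin of focal adhesions, with a log2 difference of 0.09 ± 0.046. Flna, the actin cross-linker filamin A, differed by 0.04 ± 0.044. Of 11 other integrin chains 6 were higher, with a median of 0.017. The laminin receptor chain gene Itga7 had 8.53 to 9.46 CPM at 10 µM and 8.6 to 11.7 CPM at 30 µM (log2 difference 0.22 ± 0.089).

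The structural matrix lists had the same small positive medians. Of 13 fibrillar and associated collagens 12 were higher at 30 µM, with a median of 0.060. All 16 basement membrane genes were higher, with a median of 0.064, and 15 of 17 elastic fibre and microfibril genes, with a median of 0.054. None of these genes was called. Unadjusted p was under 0.05 for 1, 2 and 3 of them, all higher, against 1.78% of all genes tested that were higher at that p. Over all genes tested, 7103 of 13707 were higher at 30 µM. These medians were not evenly shared by the pairs: the collagen median was -0.029, 0.057, 0.099, -0.049 and 0.225 in numbers 1 to 5 and 0.018 in the fit without number 5. Without number 5 the basement membrane median was 0.018 and the elastic fibre median 0.030.

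Col1a1, the α1 chain of type I collagen, had 6156, 7408, 6867, 7184 and 7814 CPM at 10 µM. It had 7252, 7497, 7794, 7732 and 8890 CPM at 30 µM. All 5 numbers were higher at 30 µM, and the ranges overlapped because number 1 started low. The log2 difference was 0.15 ± 0.037 (95% interval 0.07 to 0.22). Its partner chain Col1a2 differed by 0.07 ± 0.042 and was higher in 4 of 5 numbers.

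Hspg2, which encodes the heparan sulphate proteoglycan perlecan of basement membranes, had 718, 829, 890, 880 and 903 CPM at 10 µM. Its 30 µM values were 909, 876, 942, 938 and 973 CPM. Each number was higher at 30 µM, most so number 1, and the log2 difference was 0.14 ± 0.042. Col4a1, a chain of type IV collagen, differed by 0.07 ± 0.054 and was higher in 3 of 5 numbers.

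Ltbp4, the latent TGF-beta binding protein that helps elastic fibres form, had the smallest p of all genes. It stood at 37.7, 42.1, 44.1, 53.4 and 56.6 CPM at 10 µM and at 45.6, 46.6, 48.9, 60.9 and 65.9 CPM at 30 µM. Every number was higher at 30 µM while the groups overlapped, since numbers 4 and 5 stood above the others at both doses. The log2 difference was 0.20 ± 0.046 (95% interval 0.10 to 0.30, edgeR adjusted p = 0.934). Fbn1, fibrillin 1 of microfibrils, differed by 0.05 ± 0.038 and Fbln2, fibulin 2, by 0.07 ± 0.045.

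Other matrix lists were closer to the whole, and without number 5 the medians of the collagen-modifying, matricellular and proteoglycan lists were 0.0086, 0.015 and 0.016. Collagen-modifying and cross-linking enzymes had a median of 0.036, with 15 of 19 higher. Plod2, a lysyl hydroxylase, was the member with the smallest p and lay the other way (log2 difference -0.09 ± 0.043). Matricellular genes had a median of 0.031 with 11 of 15 higher, among them Thbs1 (thrombospondin 1, 0.03 ± 0.033) and Sparc (0.04 ± 0.032). Proteoglycan and hyaluronan genes had a median of 0.040 with 13 of 21 higher. The low-count hyaluronan synthase gene Has1 had 2.33, 4.23, 3.63, 4.98 and 3.88 CPM at 10 µM and 3.27, 5.9, 3.9, 6.37 and 5.3 CPM at 30 µM. It was higher in all 5 numbers with overlapping groups (log2 difference 0.38 ± 0.115).

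Metalloproteinases and their inhibitors had a median of 0.046, with 15 of 20 higher, and theirs was the list whose medians lay closest together across the 5 numbers among the matrix lists (0.032 to 0.056). The gelatinase gene Mmp9 had 0.66 to 1.81 CPM at 10 µM and 0.969 to 2.51 CPM at 30 µM and was higher in every number (log2 difference 0.51 ± 0.198). The far more abundant inhibitor gene Timp3 differed by -0.01 ± 0.034.

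**Figure D4:**
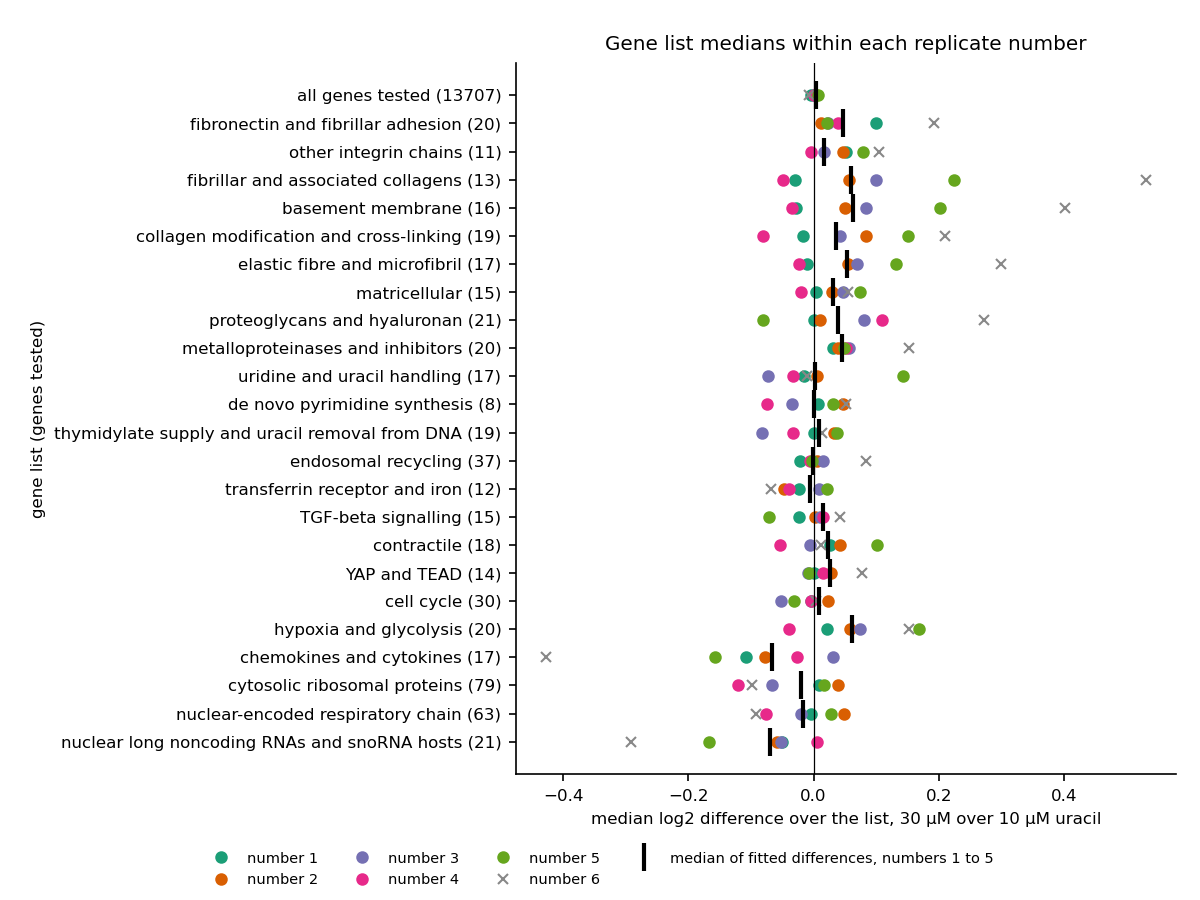
Median log2 difference of 30 µM over 10 µM (horizontal axis) for all genes and 23 gene lists (vertical axis, genes tested in brackets), with coloured points for numbers 1 to 5, a grey cross for number 6 and a black bar for the median of the fitted differences. For the collagen and basement membrane lists number 5 lies to the right (0.225 and 0.201) while numbers 1 and 4 lie left of 0.

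Of the genes that handle uridine and uracil, 9 were too low to test and none of the others was called. Upp1 itself (ENSMUSG00000020407, chromosome 11, 9067953 to 9086370, plus strand) had 9, 9, 16, 4 and 5 counts at 10 µM and 12, 15, 14, 7 and 5 counts at 30 µM in numbers 1 to 5, below the filter. That is 0.540 ± 0.295 CPM against 0.710 ± 0.272 CPM (SD, n = 5), higher at 30 µM in 4 of 5 numbers with overlapping groups (exact sign-flip permutation p = 0.125, two-sided). The uracil breakdown genes Dpyd, Dpys and Upb1 had at most 4, 2 and 1 counts in any of the 10 libraries, and the concentrative transporter genes Slc28a1, Slc28a2 and Slc28a3 at most 1. These 6 genes were singled out after their values were seen.

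Of the 26 genes of the list 17 were tested, 9 higher and 8 lower, with a median log2 difference of 0.0027. None had an unadjusted p under 0.05. The member with the smallest p was Uckl1, a uridine-cytidine kinase, 1 of 2 members lower in 5 of 5 numbers, with overlapping groups (22.3 to 24.7 CPM at 30 µM against 23.2 to 26.8 CPM, log2 difference -0.11 ± 0.058). Uckl1 overlaps the protein-coding gene Zfp512b on its own strand, so its counts are uncertain. Uck2, the main salvage kinase of proliferating cells, differed by 0.04 ± 0.041 and the equilibrative nucleoside transporter gene Slc29a1 by 0.01 ± 0.042. Their 95% intervals, -0.05 to 0.13 and -0.08 to 0.10, leave out a 1.5-fold change.

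De novo pyrimidine synthesis showed no shared direction. Of 8 genes tested 5 were higher and 3 lower, with a median of 0.00079. Cad, which carries the opening steps of the pathway, had 224, 215, 241, 257 and 248 CPM at 10 µM and 224, 222, 239, 243 and 306 CPM at 30 µM, where number 5 stood apart from the rest (log2 difference 0.05 ± 0.049). Ctps1, the CTP synthase gene, differed by 0.00088 ± 0.039.

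Cmpk1, the kinase gene for UMP and CMP that serves both synthesis and salvage, had 83.1, 82.1, 71.2, 72.4 and 78.4 CPM at 10 µM. The values at 30 µM were 72.8, 69.5, 68.8, 71.3 and 57.7 CPM. Each number was lower at 30 µM, with numbers 3 and 4 nearly level and the groups overlapping. The log2 difference was -0.19 ± 0.056 (95% interval -0.31 to -0.07). Thymidylate supply and uracil removal from DNA had 10 genes higher and 9 lower, with a median of 0.0081.

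The endosomal recycling list, which covers the Rab11, Rab4 and integrin recycling machinery, had 17 genes higher and 20 lower and a median of -0.00079. Rab11a, the small GTPase of the recycling endosome, had 90.6, 90.5, 83.7, 85.9 and 85.2 CPM at 10 µM and 85.8, 80.2, 83.3, 85 and 67.4 CPM at 30 µM. It was lower in 5 of 5 numbers, by little in numbers 3 and 4 and most in number 5, and the groups overlapped (log2 difference -0.12 ± 0.050). The log2 difference was -0.03 once GC content and length were removed. Ehd2 and the retromer gene Vps35 differed by 0.05 ± 0.037 and -0.05 ± 0.050.

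Iron genes were 6 higher and 6 lower, with a median of -0.0052. Ireb2, which encodes an iron-regulated RNA-binding protein, was lower in 4 of 5 numbers, at 36.6 to 48.7 CPM at 10 µM and 30.1 to 41.5 CPM at 30 µM (log2 difference -0.20 ± 0.063). The ferritin genes Ftl1 and Fth1 differed by 0.03 ± 0.043 and 0.03 ± 0.066.

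The signalling and growth lists lay near the median of all genes. It was 0.014 for TGF-beta signalling, 0.022 for contractile genes, 0.027 for YAP and TEAD, 0.025 for insulin-like growth factor, 0.0085 for the cell cycle, -0.0025 for p53 targets, 0.0079 for amino acid and endoplasmic reticulum stress and 0.00043 for cholesterol and fatty acid synthesis. The smooth muscle actin gene Acta2 (0.01 ± 0.032) and the cyclin gene Ccnd1 (0.02 ± 0.036) differed by less than their SE. The mitotic cyclin gene Ccnb1 was lower in 5 of 5 numbers (log2 difference -0.10 ± 0.040).

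Hypoxia and glycolysis genes stood further out, with 17 of 20 higher and a median of 0.061. It was -0.039 within number 4 and 0.023 in the fit without number 5. Pfkp, a phosphofructokinase gene, had 125, 127, 121, 123 and 119 CPM at 10 µM and 134, 134, 129, 128 and 134 CPM at 30 µM. The groups did not overlap, though the difference was small (log2 difference 0.10 ± 0.039). Chemokines and cytokines lay the other way, with 11 of 17 lower and a median of -0.066, which was -0.017 once GC content and length were removed. Ccl7, a monocyte chemokine gene, had 43.5, 58.4, 48.5, 33.3 and 23.1 CPM at 10 µM and 37.6, 53.5, 45.2, 28.1 and 20 CPM at 30 µM, lower in every number with overlapping groups (log2 difference -0.17 ± 0.050).

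Among 15 interferon-stimulated genes 10 were higher, with a median of 0.037. Ifit3, which encodes an antiviral RNA-binding protein, had 0.761, 0.747, 0.519, 0.829 and 1.04 CPM at 10 µM and 1.33, 1.28, 1.18, 1.5 and 1.06 CPM at 30 µM. The groups did not overlap, with number 5 nearly level, and this was the highest log2 difference of the genes tested (0.71 ± 0.234, 95% interval 0.21 to 1.21). The better-counted member Rigi, an RNA sensor gene, differed by 0.05 ± 0.051.

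Transcripts from the mitochondrial genome varied between libraries without order by dose. All 11 tested had a negative fitted difference, with a median of -0.187, and none had an unadjusted p under 0.05. Their medians within numbers 1 to 5 were 0.305, -0.180, -0.217, 0.346 and -1.21, so number 5 set the fitted value, which was 0.029 without it. mt-Co1, a cytochrome oxidase subunit, had 2603, 2640, 2636, 2420 and 2426 CPM at 10 µM and 2357, 2641, 2382, 2709 and 1414 CPM at 30 µM. In the fit of numbers 3 and 5 alone, mt-Nd5 and mt-Nd4, respiratory complex I subunits, were among the 8 genes called (log2 differences -0.85 and -0.87). The others were Xist (-0.56), Rpl31-ps8 (-0.48), Rn7s6 (-0.62) and entries known here by identifier only. All are named after their values were seen. Over all 5 pairs none of them was called, with mt-Nd5 at -0.28, mt-Nd4 at -0.16 and Xist at -0.23. Nuclear-encoded respiratory chain genes had a median of -0.016 (35 of 63 lower), cytosolic ribosomal protein genes -0.021 (57 of 79 lower) and nuclear long noncoding RNAs and snoRNA hosts -0.069 (18 of 21 lower).

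Since no gene passed the threshold, the 10 genes with the smallest p in each direction are named as a description. Apart from Ltbp4, Col1a1, Hspg2 and Has1, the higher ones were Mfn2, Cep170b, H4c14, Acsf2, Fam20c and Rasgrf1. The lower ones, apart from Ccl7, included Rnf128, Cept1, Mycbp, Coq10b, Zfp970, Taf1d, Zfp953 and Acadl. Of these 20 genes, 19 lay in 1 direction in all 5 numbers, with H4c14, a histone gene, the exception at 4 of 5, and 5 had groups that did not overlap, against 3.09%, 2.51% and 0.336% of all genes higher in all 5, lower in all 5 and without overlap. Choosing genes by a small p within pairs favours such genes, so nothing is read from these counts.

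Mfn2, which encodes the mitochondrial fusion protein mitofusin 2, had 85.9, 87.6, 80.1, 85.3 and 87.3 CPM at 10 µM and 104, 92.4, 88.1, 91.3 and 99.3 CPM at 30 µM. The groups did not overlap (log2 difference 0.15 ± 0.043). Acadl, a mitochondrial fatty acid dehydrogenase gene, had 29.2, 28.6, 30.3, 28.4 and 28.3 CPM at 10 µM and 25.2, 26.7, 26.8, 25.3 and 23 CPM at 30 µM. These groups did not overlap either (log2 difference -0.19 ± 0.056). Coq10b, of coenzyme Q handling, differed by -0.19 ± 0.051 and Acsf2, an acyl-CoA synthetase gene, by 0.28 ± 0.089.

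Mycbp, which encodes a MYC-binding protein, had 13.2 to 15.3 CPM at 10 µM and 10.4 to 12.6 CPM at 30 µM, without overlap (log2 difference -0.26 ± 0.070). Cept1, a choline and ethanolamine phosphotransferase gene of phospholipid synthesis, had 40.2 to 46.1 CPM at 10 µM and 32.2 to 43.1 CPM at 30 µM (log2 difference -0.22 ± 0.054), and Rnf128, a ubiquitin ligase gene, differed by -0.24 ± 0.059. The dose groups of Zfp953 also did not overlap, but the gene overlaps another annotated gene on its own strand, so its counts are uncertain. Mfn2 and Cept1 overlap protein-coding genes on the other strand, and the strand setting of the counting is not given in the sources used here.

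The libraries separated by replicate number more than by dose. In the same fit the number terms were called for 1555 genes (11.3% of 13707). The leading principal component held 41.7% of the variance, of which 99.1% lay between numbers and 0.196% between doses.

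The genes with the smallest p for the number were Coch, Upk3b, Ccn5, Ptgs2 and Errfi1. Coch, a secreted matrix protein gene, had 64.3, 49.9, 48.8, 21.3 and 10.0 CPM at 10 µM in numbers 1 to 5 and 60.9, 55.6, 46.6, 21.6 and 9.24 CPM at 30 µM. Upk3b, a mesothelial marker, ran the opposite way, with 5.99, 5.04, 5.25, 19.2 and 34.6 CPM at 10 µM and 5.39, 4.92, 4.41, 17.1 and 38.5 CPM at 30 µM. Numbers 4 and 5 stood apart from numbers 1 to 3 in both genes at both doses. The 6 tested mesothelial or epithelial markers summed to 108.7 to 231.8 CPM at 10 µM and 104.1 to 267.7 CPM at 30 µM.

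Y-linked expression split the numbers likewise. Ddx3y, a Y-linked RNA helicase gene, had 20.3, 18.2, 17.3, 7.16 and 3.46 CPM at 10 µM and 17.2, 17.1, 16.9, 8.88 and 1.29 CPM at 30 µM. The block removes only the part of such a level that both doses of a number share, and Ddx3y kept a fitted log2 difference of -0.13 ± 0.122.

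The dose difference within a number followed the GC content of the transcript. Across the 12940 genes with 1 CPM or more and a known sequence, the fitted log2 difference correlated with GC content with r = 0.370, a description over genes of the same 10 libraries. Within numbers 1 to 5 r was 0.154, 0.170, 0.124, -0.208 and 0.507, so number 4 ran against the other 4. In number 5 the median difference was -0.224 in the 2588 genes with the lowest GC content and 0.177 in the 2588 with the highest. In number 4 these medians were 0.084 and -0.048. The 244 higher genes with unadjusted p under 0.05 had a median GC content of 55.5% and the 268 lower ones 42.8%, against 49.1% over all genes tested.

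**Figure D5:**
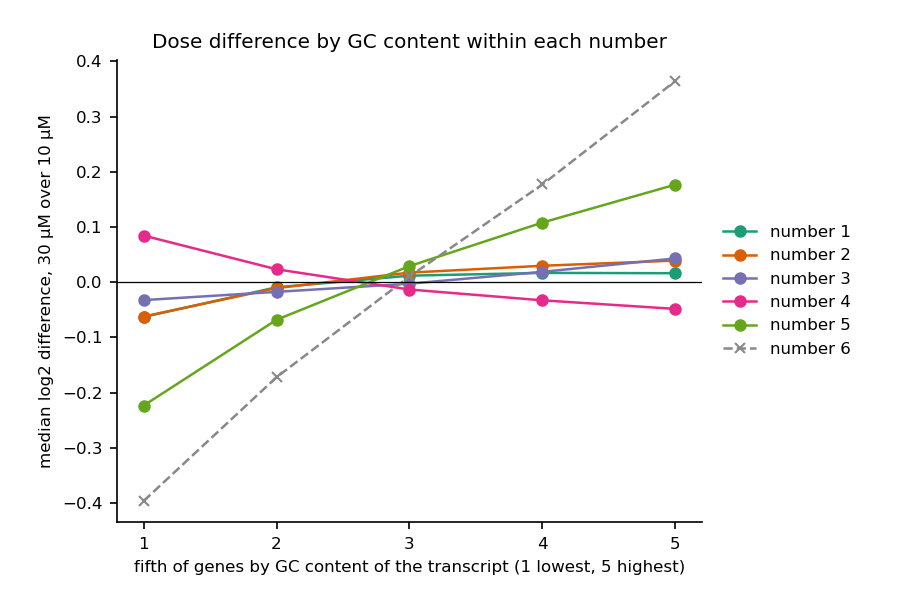
Median log2 difference of 30 µM over 10 µM (vertical axis) in 5 equal groups of genes ordered by the GC content of their transcripts (horizontal axis, 1 lowest), with a line for each replicate number and the pair of number 6 dashed. Numbers 1, 2, 3 and 5 run upwards, number 4 runs downwards, and number 6 is steepest, from -0.396 to 0.364.

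Many of the differences named above moved with this pattern. A smooth function of GC content and transcript length was removed from each library, which by construction brought the correlation near 0, to 0.0075. The genes with unadjusted p under 0.05 then numbered 426, and none was called. The removal took no account of dose, so it would also take out a dose difference that followed GC content. The collagen median went from 0.060 to 0.024, that of basement membrane genes from 0.064 to 0.015, that of the fibronectin and fibrillar adhesion list from 0.046 to 0.022 and that of hypoxia and glycolysis genes from 0.061 to 0.034. The log2 difference of Col1a1 became 0.09, that of Hspg2 0.07, that of Ltbp4 0.13 and that of Fn1 0.008. Those of Cmpk1 (-0.19) and Has1 (0.38) moved by little, while that of Mfn2 went from 0.15 to 0.12 and that of Ifit3 from 0.71 to 0.74. The share of pairs under the alignment quality limit had the signs of the pattern. At 30 µM it was higher by 1.80, 0.816, 1.04 and 5.35 percentage points in numbers 1, 2, 3 and 5. It differed by -0.305 in number 4, and it did not rank numbers 1, 2 and 3 as r did. The share of the 10 most counted genes had the same signs, at 0.202, 0.0111, 0.239, -0.240 and 0.440 points in numbers 1 to 5. The part of either share in the pattern was not tested.

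The pair of number 6, which took no part in the fit, differed more than any other pair. Its log2 differences had an SD of 0.409 over the 9373 genes with 10 CPM or more, and 13.7% of these exceeded a 1.5-fold change, against 0.0854% to 1.14% in numbers 1 to 5. Its 30 µM library had 7392564 gene counts and 37.9% unaligned pairs and its 10 µM library 5.24% unaligned pairs. Its differences correlated with GC content with r = 0.557.

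In number 6, Col1a1 was 1.49 higher at 30 µM on the log2 scale, Ltbp4 1.09, Itga5 0.97, Hspg2 0.82 and Fn1 0.28, while Tfrc was lower, at -0.83. Of the 244 genes with unadjusted p under 0.05 and higher at 30 µM in numbers 1 to 5, 220 were also higher in number 6 (90.2%, against 49.5% of all genes), and 182 (74.6%, against 49.3%) once the GC and length pattern was removed. Of the 268 lower genes 37 were higher in number 6 (13.8%), and 102 (38.1%) after that removal. These shares describe 1 pair, whose libraries stand apart from the rest at both doses. Scaled with all 18 libraries, Fn1 had 12929 and 15741 CPM in number 6, against means of 6742 and 7001 CPM in numbers 1 to 5. Hspg2 had 2042 and 3616 CPM, against 831 and 915 CPM. The control of number 1 was also high, at 14811 CPM of Fn1 and 2122 CPM of Hspg2. Itgb1 was not raised in number 6, at 1244 and 1077 CPM. Whether the study removed the 30 µM library of number 6 for human RNA is not stated in the labels.

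The lowest fitted difference of all genes tested belonged to Trf, and Cela1 was among the 4 lowest. Trf, transferrin, made in the liver, had 69, 129, 5, 10 and 34 counts at 10 µM and 5, 0, 1, 17 and 38 counts at 30 µM in numbers 1 to 5, with a log2 difference of -1.82 ± 1.10. Cela1, a pancreatic elastase gene, had 61, 426, 43, 34 and 18 counts at 10 µM and 44, 34, 24, 98 and 23 counts at 30 µM (log2 difference -0.95 ± 0.932, edgeR adjusted p = 0.941). Both were chosen after their values were seen. The highest values, Trf in the 10 µM libraries of numbers 1 and 2 and Cela1 in the 10 µM library of number 2, lay in libraries that also held the untested liver or pancreatic counts, while those of number 5, with 34 and 38 Trf counts, held few. The 9 genes called without the filter, Alb, Hp, Fgb, Fga, Ahsg, Serpina3k, Fgg, Apoa1 and Mat1a, are liver genes as well, counted almost entirely in the 10 µM libraries of numbers 1 and 2.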

How the data were processed

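Total RNA of confluent MEFs was sequenced as stranded, ribosome-depleted, paired-end libraries. The authors deposited raw counts of read pairs per mouse Ensembl gene and library, with no normalisation and no pooling of replicates. The submitters' processing notes name FastQC, HISAT2, SAMtools 1.2 and HTSeq, in no stated role, and the human build GRCh38, although the identifiers are mouse. The annotation release and strand setting are not given in the sources used here. Pairs that aligned to several places were not counted, which lowers genes with near-identical copies, and the intervals cover counting error together with the spread between samples. Library sizes and tests leave out the 5 closing entries for uncounted pairs, which held 6.85% to 8.66% of pairs outside any gene, 1.44% to 1.64% over several genes, 4.79% to 13.1% under the quality limit, 1.72% to 3.59% unaligned and 18.4% to 20.2% aligned to several places in the 10 libraries. The study's methods state that a vehicle sample and a sample of the higher uracil dose were removed for human RNA. The labels do not say which. All 18 count columns were matched to samples by name.

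Groups and numbers were taken from the sample titles. Genes passing edgeR's expression filter were fitted with edgeR 4.0.16 in R 4.3.3 (trimmed-mean scaling, robust quasi-likelihood, dose plus replicate number, 2-sided, Benjamini-Hochberg over 13707 genes, threshold 0.05), after the code was tested on simulated data. Same-numbered libraries deviated together from their dose means (r = 0.380, 0.355, 0.311, 0.165 and 0.547 for numbers 1 to 5, across genes), so the numbers were taken to pair the samples, although a library of another number came closer for number 3 (0.335) and number 4 (0.367). Within-number log2 differences used a prior count of 2, and exact sign-flip permutation used all 32 sign patterns. The alternatives used limma 3.58.1, DESeq2 1.42.0, other scalings and filters, left-out numbers and added libraries. A spline of GC content and length (5 degrees of freedom each) and the fit without numbers 1, 2 and 4 were added after seeing the data.

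GENCODE M39 (GRCm39) named 51731 of 55487 identifiers. Its coordinates may differ from the authors' build. The comparison, its 34 gene lists, its 7 further lists of cell type markers and their members were chosen with earlier results of these data known. The genes named were Fn1, Itga5, Itgb1, Upp1 and Tfrc, up to 10 per direction past the threshold or, failing that, with the smallest p (at least 1 CPM, a symbol not starting with Gm or ending in Rik), the smallest p and 2 most counted members of each list, of which some are printed and a few are not reported here, and the 5 with the smallest p for the number. Tissue gene lists for the traces were written after the counts were seen.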

Additional observations from a re-analysis of the deposited data

Results flagged for a closer look

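A library far from the other 4 of its dose was looked for in 140 sets of 5 values, by the gap to the nearest value over the whole range. The sets were 10 library measures and the part of the 120 named genes that was listed for the text, at each dose. Such a library was found in 7 sets, where chance would give about 1 in 20, or 7. Number 5 was the library set apart in 6 of the 7.

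At 30 µM, number 5 had 3.59% unaligned pairs against 2.13% to 2.33% in the others, 57.7 CPM of Cmpk1 against 68.8 to 72.8, 306 CPM of Cad against 222 to 243, 233 CPM of Ctps1 against 217 to 218 and 1414 CPM of mt-Co1 against 2357 to 2709. At 10 µM, number 5 had 0.416 CPM of Rasgrf1 against 1.18 to 1.36. The remaining set was Ccnb1 at 30 µM, with 110 CPM in number 1 against 96.2 to 97.2.

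For genes of other tissues that lay outside the tests, the highest library of each dose was set against the highest control library. It lay above that control in 5 cases. Pancreatic acinar genes summed to 4991 counts in the 10 µM library of number 2, against 3612 in the highest control. Liver genes summed to 706 counts in that same library and to 26 in the 30 µM library of number 4, against 24 in the highest control. The 10 µM library of number 1, not the highest of its dose, held 255 liver counts. Erythroid genes reached 4 counts at 10 µM against 1 in the controls and lung epithelial genes 6 against 5, which are too few to separate.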

How the results depend on the processing

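The count of 0 genes called held under every alternative except 2: 9 were called without the filter on low counts, all genes of the liver traces, and 8 with numbers 1, 2 and 4 left out, a fit that rests on 2 pairs. Without the replicate block 0 were called, with 192 genes at an unadjusted p under 0.05 in place of 512. That count was 109 with DESeq2, 636 with limma, 970 without the filter, 927 with number 6 added and 366 to 1237 with 1 number left out, highest without number 4. The genes called for the replicate number, 1555, became 2443 without the filter, 3194 with number 6 added, 2913 with controls added, 2389 with the GC and length spline, 2369 with the spline and without number 4 and 4433 with the spline and number 6.

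The log2 difference of Itga5 kept its sign under all 20 alternatives, and so did the 20 genes named by smallest p under all 398 fits that held them. The sign of Fn1 turned with the spline and number 4 left out (-0.015) and with numbers 1, 2 and 4 left out (-0.032). That of Itgb1 turned with library totals alone (-0.0096), without the filter (-0.00014), with number 6 added (-0.032), with all 18 libraries (-0.032) and with numbers 1, 2 and 4 left out (-0.042), and ran from -0.0096 to 0.016 with 1 number left out. That of Tfrc turned with the spline (0.016) and ran from -0.082 to 0.0040 with 1 number left out, positive without number 5. The cause of these turns was not tested, and the 95% interval of each of these values held 0. Depth limits low genes most: the median SE was 0.281 under 1 CPM and 0.0556 at 10 CPM or more.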
